A study of Mus musculus and Callithrix jacchus with 22 samples.

Results

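Committed oligodendrocyte precursors (COP) made up 354 of 15919 marmoset cells profiled by single-cell ATAC-seq, an assay in which a transposase tags open chromatin and each read is assigned to a cell by its barcode. The members were all cells that the authors' annotation names COP. Of these, 175 came from newborn and 179 from adult libraries. The name was given to 0 of the 19145 mouse cells of the series, which held 35064 cells in all. All 10 marmoset libraries came from wild-type animals and from tissue labelled somatosensory cortex, while the methods of the study name motor cortex as well. There were 5 newborn libraries (Day0) and 5 adult libraries, of which 2 were labelled Y7 and 3 were labelled Y8. Per the methods of the study, live cells were sorted after papain digestion, so all numbers describe recovered cells and not the tissue. The labels also carry a general sorting protocol for fluorescent projection neurons, which the marmoset methods do not mention. The labels name neither the animal nor the preparation behind a library, so p-values measure the spread between libraries, which may be technical.

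Oligodendrocytes make the myelin that insulates axons, and they arise stepwise from oligodendrocyte precursors (OPC), which can divide and persist in the adult cortex. COP are the short-lived step after a precursor has committed to differentiate. Newly formed oligodendrocytes (NFOL) follow, then myelin-forming cells (MFOL), which wrap axons, and mature oligodendrocytes (MOL), which maintain the sheath. Olig2, the marker given for COP, encodes a transcription factor that is used along the whole lineage. The tables used here held reads and peaks per cell and no gene-level values, so the name COP was taken from the annotation and was not checked against Olig2.

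Each library held between 1209 and 1814 cells, with 5139726 to 13441944 reads in total. Day0 replicates 1 and 2 stood apart from the other newborn libraries in their neurons, with 168 and 188 cells named only as excitatory neurons (ExNeuron) against 0, 1 and 0, and with 2 and 8 layer IV neurons against 178, 147 and 113. Among adults, the Y7 libraries held 135 and 81 ExNeuron against 21, 18 and 16 at Y8. Their layer IV neurons were not fewer, at 37 and 25 against 20, 12 and 16. At each age the libraries with most ExNeuron were also those with the lowest COP shares, and a link was not tested. Tests between the ages and against OPC are given with and without Day0 replicates 1 and 2, the latter chosen after the data were seen. Any 2 libraries shared between 1 and 9 cell barcodes, and no shared barcode had equal read counts. Only 4 COP cells carried a barcode that occurred in another library, in each case a library of the other age, and none matched another COP cell.

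COP cells of both ages carried the number of a single cluster. Cluster 19 held all 354 COP cells and 0 cells of any other name, with 175 newborn and 179 adult cells. Names were given to clusters and each of the 26 clusters carried a single name, so the 0 follows from the naming. Cluster 19 was 1 of only 2 clusters, of 26, with cells of both ages, the other being cluster 12 of Vip interneurons with 415 newborn and 114 adult cells. OPC, the preceding stage, did not share clusters across ages: newborn OPC lay in clusters 6 and 24 (813 and 134 cells) and adult OPC in cluster 10 (662 cells). NFOL, the following stage, lay in cluster 7 (711 cells), which held adult cells alone. In the study each cluster was split by time point, small pieces were removed and the rest were named, so a stage missing at one age may have been removed there, and none of this was tested.

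COP were rare in every library, and libraries of the same age differed widely. The share of all cells was 0.992% (16 of 1613 cells), 0.432% (7 of 1620), 2.59% (47 of 1814), 3.06% (53 of 1730) and 3.19% (52 of 1630) in Day0 replicates 1 to 5. It was 0.860% (14 of 1627) and 0.662% (8 of 1209) in Y7 replicates 1 and 2, and 2.55% (40 of 1570), 3.53% (58 of 1643) and 4.03% (59 of 1463) in Y8 replicates 1 to 3. At each age 2 libraries lay under 1% and 3 lay above 2.5%, so the ages overlapped. The 95% Wilson intervals, which cover counting error only, reached from 0.209% to 0.889% in the lowest library (Day0 replicate 2) and from 3.14% to 5.17% in the highest (Y8 replicate 3). The spread between libraries exceeded counting error at each age (chi-square tests of COP against all other cells, chi-square = 51.3, p = 1.89e-10 in newborns and chi-square = 58.2, p = 6.89e-12 in adults, 4 degrees of freedom each). Within Y8 (p = 0.0679) and within Y7 (p = 0.551, chi-square tests) it did not pass.

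**Figure D1:**
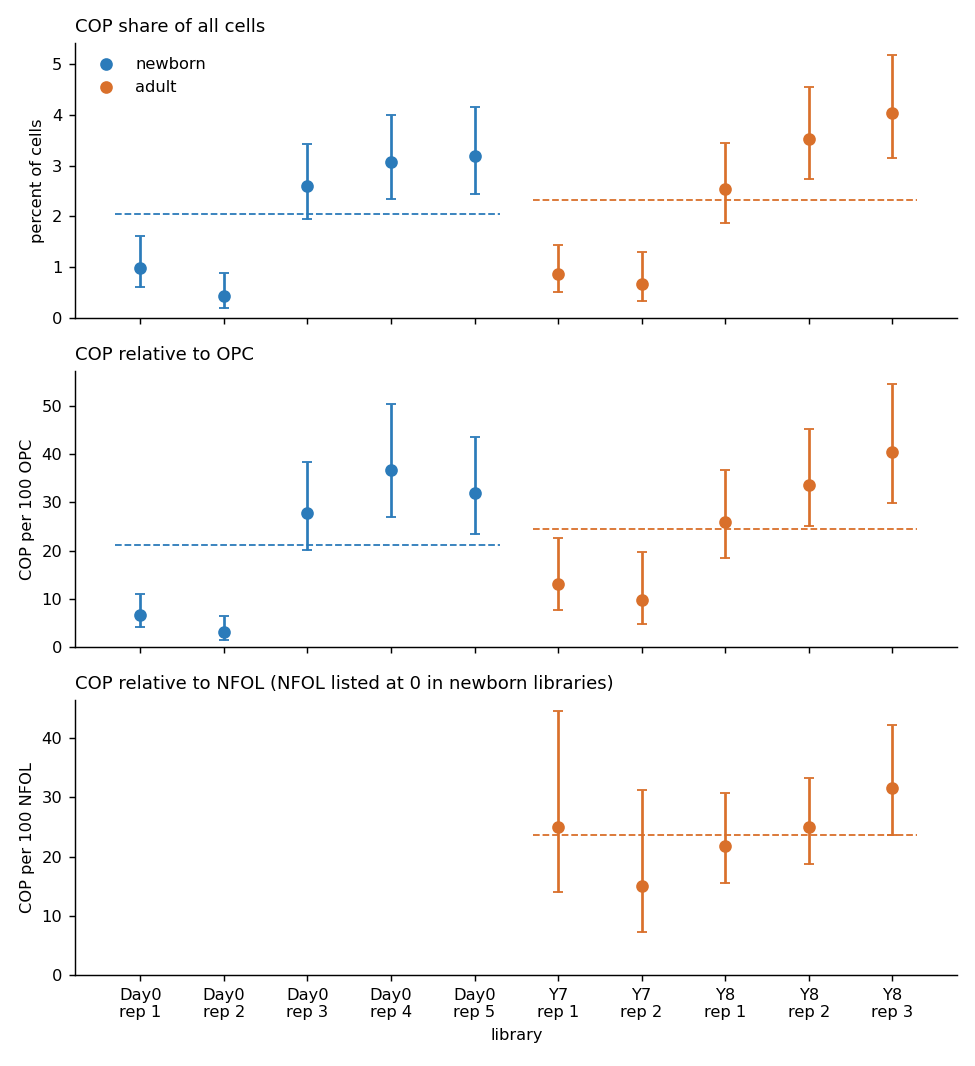
COP in each of the 10 libraries as a percent of all cells (top), per 100 OPC (middle) and per 100 NFOL (bottom, adult libraries only); bars are 95% Wilson intervals and dashed lines are means over the 5 libraries of an age. Day0 replicates 1 and 2 and both Y7 libraries lie below 1% of cells, whereas the 5 values per 100 NFOL range from 15.1 to 31.6 with overlapping intervals.

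Whether the share of COP changed from newborn to adult was asked first over all cells. The mean was 2.05% ± 1.26 in newborns and 2.33% ± 1.53 in adults (SD over 5 libraries each). The difference of 0.273 percentage points did not pass (exact permutation test, adjusted p = 0.714), and its 95% interval from the same test ran from -2.13 to 2.54 points. Its sign depended on single libraries: the difference was -0.133 points without Day0 replicate 2, -0.0281 without Y8 replicate 2 and -0.154 without Y8 replicate 3. Without Day0 replicates 1 and 2 it was -0.622 points (exact permutation test with 3 newborn libraries, adjusted p = 0.554). The 2 Y7 libraries averaged 0.761% ± 0.141 and the 3 Y8 libraries averaged 3.37% ± 0.755 (SD), and every Y8 library lay above both Y7 libraries. With 2 against 3 libraries the exact permutation test cannot go below p = 0.1, the value it gave, so the difference of 2.61 points could not pass.

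Relative to OPC, the cells they derive from, COP did not pass the test between the ages either. There were 6.61, 3.06, 27.8, 36.8 and 31.9 COP per 100 OPC in Day0 replicates 1 to 5. The adult libraries had 13.1 and 9.64 at Y7 and 26.0, 33.7 and 40.4 at Y8. The same 4 libraries were low as for the share of all cells, and the ages overlapped. As a percent of OPC and COP together, COP were 16.4% ± 11.0 in newborns and 18.996% ± 8.61 in adults (SD, n = 5), a difference of 2.59 points with a 95% interval of -13.0 to 19.02 (exact permutation test, adjusted p = 0.714). The direction turned in cells with at least 4249 reads, the median of all marmoset cells (-5.96 points), and without Day0 replicates 1 and 2 (-5.29 points). Without Day0 replicate 2 alone it was -0.767 points.

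Astrocytes, glia from outside the lineage that were named at both ages, gave a further scale. There were 6.48, 2.72, 19.1, 20.4 and 20.8 COP per 100 astrocytes in Day0 replicates 1 to 5. The values were 13.9 and 10.0 at Y7 and 22.7, 36.5 and 41.5 at Y8. The 3 Y8 libraries lay above all newborn libraries, whereas the Y7 libraries lay among them. The means were 13.9 ± 8.61 and 24.9 ± 13.8 (SD, n = 5), and the difference of 11.0 per 100 had a 95% interval of -7.81 to 28.1 (exact permutation test, adjusted p = 0.333). It was 6.87 without Y8 replicate 3, 4.83 without Day0 replicates 1 and 2 (exact permutation test with 3 newborn libraries, adjusted p = 0.554), 6.80 with agreeing libraries averaged, and 19.7 or -1.97 with the Y8 or the Y7 libraries alone as adults.

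Within the whole lineage, the mean COP share was lower in adults, where later stages were named beside COP, but the difference did not pass after adjustment. COP were 6.20%, 2.97%, 21.8%, 26.9% and 24.2% of lineage cells in Day0 replicates 1 to 5, whose other lineage cells were all OPC. They were 1.22% and 0.922% at Y7 and 3.10%, 4.11% and 4.77% at Y8. The means were 16.4% ± 11.0 and 2.83% ± 1.71 (SD, n = 5). The difference of -13.6 points had an unadjusted p of 0.0317 and, adjusted over 4 composition tests, missed the threshold (exact permutation test, adjusted p = 0.127). Without Day0 replicate 2 it was -16.9 points and passed (exact permutation test with 4 newborn libraries, adjusted p = 0.0317). Without Day0 replicates 1 and 2 it was -21.5 points and did not pass (exact permutation test with 3 newborn libraries, adjusted p = 0.0714). The unadjusted p-values of these exact permutation tests, 0.00794 and 0.0179, were each the smallest that the libraries left allow. The 2 outcomes therefore do not rank the differences. NFOL, MFOL and MOL were named only in adults and enter the denominator there, so a change in COP and the naming of later stages cannot be told apart.

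**Figure D2:**
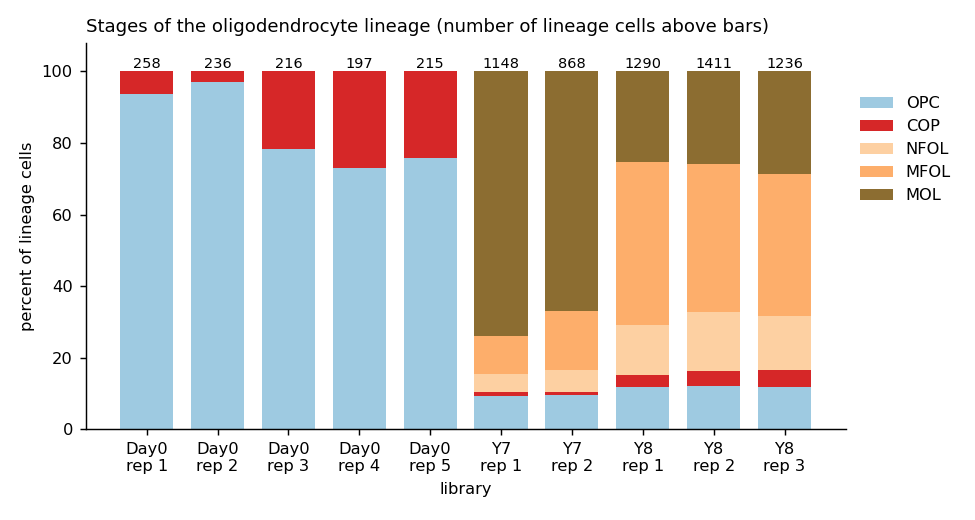
Percent of oligodendrocyte lineage cells named OPC, COP, NFOL, MFOL and MOL in each library, with the number of lineage cells above each bar. COP take 2.97% to 26.9% of the newborn lineage, which held only OPC and COP, and 0.922% to 4.77% of the adult lineage.

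The adult libraries differed in the stages around COP. MOL, the last stage, were 74.0% and 67.1% of the lineage in the Y7 libraries and 25.3%, 25.9% and 28.6% in the Y8 libraries. MFOL were 10.5% and 16.4% at Y7 and 45.5%, 41.3% and 39.7% at Y8. NFOL, the stage right after COP, were 4.88% and 6.11% at Y7 and 14.2%, 16.4% and 15.1% at Y8. OPC were 9.32% and 9.56% at Y7 and 11.9%, 12.2% and 11.8% at Y8. OPC, COP, NFOL and MFOL thus all had lower shares of the lineage in the Y7 than in the Y8 libraries, and MOL had higher ones. None of these differences in lineage share between Y7 and Y8 was tested.

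In adults, where COP stand between OPC and NFOL, the number of COP per NFOL overlapped between Y7 and Y8. The ratio was 25.0 (14 COP to 56 NFOL) and 15.1 (8 to 53) per 100 NFOL at Y7. At Y8 it was 21.9 (40 to 183), 25.0 (58 to 232) and 31.6 (59 to 187). The mean was 23.7 ± 5.97 COP per 100 NFOL (SD, n = 5), and of the Y7 values 1 lay within and 1 below the Y8 range. The spread over the 5 libraries did not exceed counting error (chi-square = 4.81, p = 0.307), whereas the spread of COP against OPC did (chi-square = 24.3, p = 6.82e-05, chi-square tests of cell counts chosen after the data were seen, 4 degrees of freedom each). Whether these ratios differ in spread was not tested, and the intervals of the Y7 libraries were wide, at 14.0 to 44.5 and 7.29 to 31.2 per 100 NFOL. In cells with at least 4249 reads the mean ratio was 16.3 per 100 NFOL. In the newborn libraries NFOL were listed at 0, so no ratio was taken.

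Reads per COP cell, the depth at which their chromatin was seen, differed between libraries too. Over all COP cells it ran from 1000, the lower limit for a cell in the deposited table, to 13809, with a median of 3522. The median per library was 2830, 2683, 5045, 5612 and 5219 reads in Day0 replicates 1 to 5. It was 2612 and 2690 at Y7 and 3201.5, 2466 and 2424 at Y8. Day0 replicates 3 to 5 lay above all other libraries, and Day0 replicates 1 and 2 lay within the adult range. The medians of those newborn replicates rest on 16 and 7 cells, with 95% order-statistic intervals of 1665 to 6062 and 1327 to 5309 reads.

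**Figure D3:**
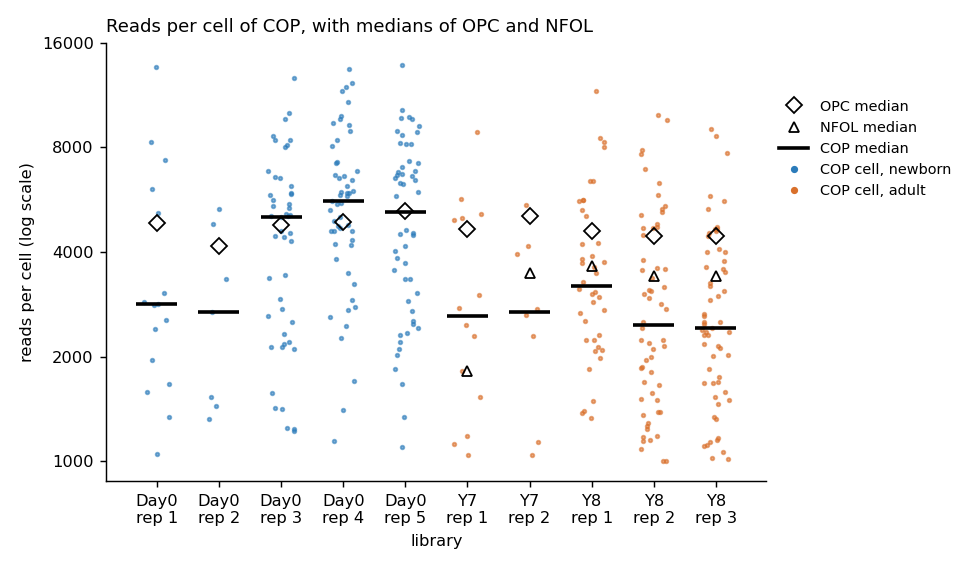
Reads per COP cell on a log scale in each library (points), with the COP median (line) and the medians of OPC (diamond) and NFOL (triangle, adults). COP medians of 5045 to 5612 reads in Day0 replicates 3 to 5 lie near the OPC medians, and those of the other 7 libraries lie below them.

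Between the ages, adult COP had 0.654 times the reads of newborn COP as a ratio of geometric means over libraries (95% interval 0.465 to 1.01), which did not pass (log2 difference -0.61, adjusted p = 0.127, exact permutation test, n = 5). The medians of peaks followed: 1398.5, 1253, 2576, 2860 and 2695.5 peaks in Day0 replicates 1 to 5, 1409 and 1375.5 at Y7, and 1684, 1307 and 1325 at Y8. Their ratio was 0.695 (95% interval 0.485 to 1.12, adjusted p = 0.202, exact permutation test, n = 5). Without Day0 replicates 1 and 2, an alternative chosen after the data were seen, the log2 differences were -0.99 for reads and -0.94 for peaks and passed (exact permutation test with 3 newborn libraries, adjusted p = 0.0268 each). Leaving out Day0 replicate 2 alone gave -0.76 for reads (adjusted p = 0.0317) and -0.70 for peaks (exact permutation tests with 4 newborn libraries, adjusted p = 0.0357). Leaving out Day0 replicate 1 alone gave -0.74 for reads (exact permutation test with 4 newborn libraries, adjusted p = 0.0476). The depth of all cells moved with age too, with library medians of 6092 to 7145.5 reads in newborns and 2557.5 to 3338 in adults, and its part in the difference was not tested.

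COP had fewer reads than OPC of the same library. The median reads of COP were 0.585, 0.644, 1.05, 1.15 and 0.995 times those of OPC in Day0 replicates 1 to 5. They were 0.561 and 0.528 times those of OPC at Y7 and 0.697, 0.553 and 0.544 times at Y8. COP lay below OPC in 8 of 10 libraries, the exceptions being Day0 replicates 3 and 4. Over the 10 libraries the geometric mean ratio was 0.700 with a 95% interval of 0.561 to 0.875 (log2 difference -0.51, adjusted p = 0.0312, exact sign-flip permutation test). The medians of OPC themselves stayed between 4164 and 5243 reads in all libraries. Cells were named from clusters of the same peak data, so depth is not independent of the naming.

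The call for COP against OPC was not firm. It was lost when Day0 replicate 1 or 2, Y7 replicate 1 or 2, or Y8 replicate 2 or 3 was left out, with log2 differences of -0.50 to -0.47 (adjusted p = 0.0625 each, exact sign-flip permutation test, n = 9). Without Day0 replicates 1 and 2 together it was -0.47 (exact sign-flip permutation test, adjusted p = 0.125). Averaging libraries whose cell type counts agreed was not tried for reads or peaks against OPC. It would leave too few values for the sign-flip test to pass. The adult libraries alone averaged 0.574 times the OPC reads, all 5 in the same direction, at the smallest p that 5 libraries allow (p = 0.0625, exact sign-flip permutation test). The newborn libraries averaged 0.854 times (p = 0.438, same exact permutation test). The difference between the ages in this log2 ratio was -0.57 (95% interval -1.02 to -0.02) and did not pass after adjustment over 6 depth tests (exact permutation test, unadjusted p = 0.0476 and adjusted p = 0.127). It was -0.71 without Day0 replicate 1 (adjusted p = 0.0476), -0.68 without Day0 replicate 2 (adjusted p = 0.0317) and -0.89 without both (adjusted p = 0.0268, exact permutation tests). For peaks the ratio of COP to OPC was 0.706 over 10 libraries, below 1 in 7 of them (95% interval 0.570 to 0.875, adjusted p = 0.0312, exact sign-flip permutation test), and this call was lost without any of the same 6 libraries (log2 differences -0.48 to -0.46). It was -0.45 without Day0 replicates 1 and 2 together (exact sign-flip permutation test, adjusted p = 0.125), and the difference between the ages in the log2 ratio of peaks was -0.85 against -0.53 with them (exact permutation tests, adjusted p = 0.0268 and 0.127).

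Against NFOL, the next stage, COP had fewer reads in 4 of 5 adult libraries. The ratio of medians was 1.44 in Y7 replicate 1, 0.773 in Y7 replicate 2 and 0.879, 0.723 and 0.708 in the Y8 libraries. Y7 replicate 1 was the exception, with an NFOL median of 1816.5 reads against 3412 to 3644 in the other 4 libraries. The mean log2 difference was -0.20 (adjusted p = 0.375, exact sign-flip permutation test, n = 5). No p could pass with 5 libraries, and the value was -0.38 without Y7 replicate 1 and -0.13 without Y8 replicate 3. For peaks it was -0.33 (adjusted p = 0.281, exact sign-flip permutation test, n = 5), and -0.53 without Y7 replicate 1.

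To see where COP lay among all cells of their library, the cells of each library were placed in 3 equal bins by reads. In newborns, 68.8%, 71.4%, 51.1%, 39.6% and 50.0% of COP fell in the bin with fewest reads (Day0 replicates 1 to 5), and 0% to 13.2% in the bin with most reads. In adults, 42.9%, 37.5%, 12.5%, 37.9% and 35.6% fell in the bin with fewest reads (Y7 replicates 1 and 2, then Y8 replicates 1 to 3), and 12.5% to 47.5% in the bin with most. The COP share of cells was lower in the bin with most than in that with fewest reads in all 5 newborn and 4 of 5 adult libraries. The mean difference was -1.14 percentage points (adjusted p = 0.122, exact sign-flip permutation test over 10 libraries). By age the means were -2.55 ± 1.23 points in newborns and 0.276 ± 1.35 in adults (SD, n = 5). Without Y8 replicate 1, where the difference was 2.67 points, the mean over both ages was -1.56 and passed (adjusted p = 0.0156, exact sign-flip permutation test, n = 9). It was -1.07 without Day0 replicates 1 and 2 (adjusted p = 0.208, exact sign-flip permutation test, n = 8). The 0 COP cells of Day0 replicate 2 in its bin of most reads stand beside 7 COP cells in that library.

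**Figure D4:**
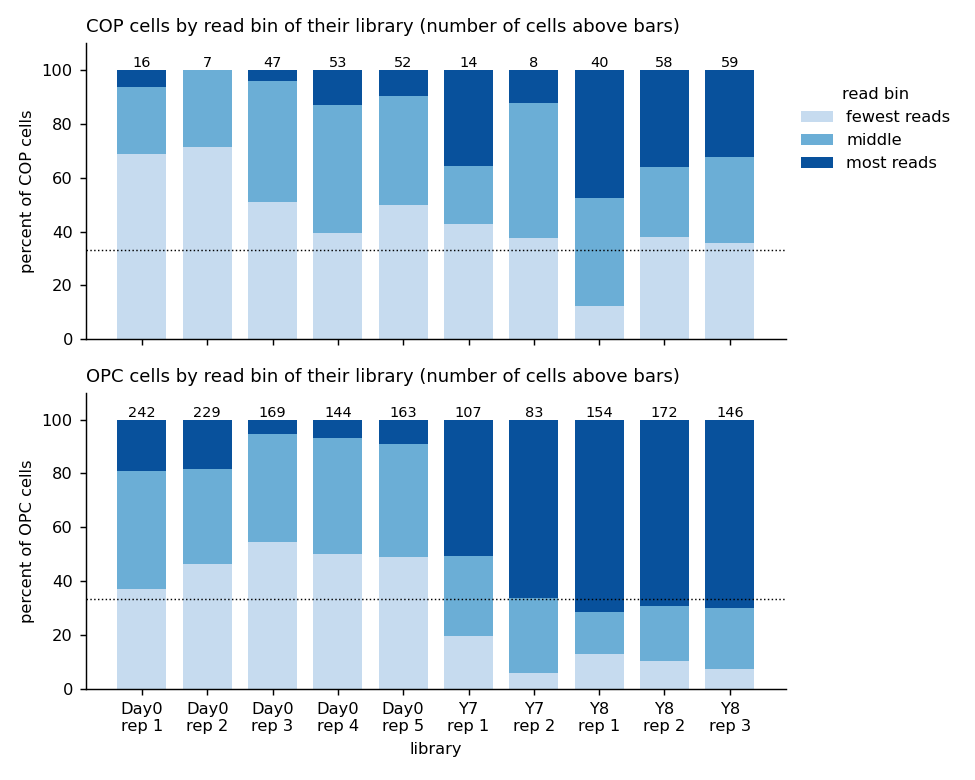
Percent of COP (top) and OPC (bottom) cells in 3 equal bins of the cells of their library by reads, with the number of cells above each bar and a dotted line at an even split. Adult OPC fall mostly in the bin with most reads, at 50.5% to 71.4%, and adult COP do so at 12.5% to 47.5%.

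In adults the ratio of COP to OPC was lower in the bin with most reads, while newborn libraries went both ways. Of adult OPC, 50.5% to 71.4% fell in the bin with most reads, against 5.33% to 19.01% of newborn OPC. Summed over the adult libraries there were 76.0 COP per 100 OPC in the bin with fewest reads (57 to 75 cells, 95% Wilson interval 53.9 to 107), 38.8 in the middle bin (57 to 147) and 14.8 in the bin with most reads (65 to 440, 11.4 to 19.2). The Wilson intervals of summed cells cover counting error only and leave out the spread between libraries. In the bin with fewest reads the adult libraries ran from 25.0 to 191 COP per 100 OPC. The ratio was higher in the bin with fewest reads than in that with most in 5 of 5 adult libraries. In the newborn libraries it was 19.8 (87 to 440 cells), 18.96 (73 to 385) and 12.3 (15 to 122, 7.24 to 20.9), and the lowest bin lay above the highest in 3 of 5 libraries. Of the 122 newborn OPC in the bin with most reads, 46 and 42 came from Day0 replicates 1 and 2, which held few COP. With libraries weighted equally the newborn means went the other way, at 20.9 ± 11.9, 21.7 ± 17.4 and 25.5 ± 28.5 COP per 100 OPC from fewest to most reads (SD, n = 5), so no newborn direction is read from these values. The adult means were 85.3 ± 70.7, 38.8 ± 24.8 and 12.9 ± 7.25. These ratios were not tested.

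At equal reads, COP did not differ detectably from OPC in peaks and lay below NFOL in every adult library. For each library a curve of peaks on reads was fitted over all its cells, and a cell's departure from the curve tells how many more or fewer peaks it had than cells of equal reads. COP departed by -0.677%, -3.43%, -1.77%, -3.11% and -1.81% in Day0 replicates 1 to 5. They departed by -3.56% and -2.35% at Y7 and by -0.227%, -0.394% and -0.270% at Y8. All 10 values were below 0, with the Y8 libraries closest to it. OPC lay between -2.82% and -1.11% in the 10 libraries and astrocytes between -2.67% and -0.636%, so values below 0 were shared by these types. The log2 difference of COP and OPC averaged 0.0023 (95% interval -0.0134 to 0.0178, adjusted p = 0.727, exact sign-flip permutation test over 10 libraries), which is a ratio of peaks at equal reads between 0.991 and 1.01. Adult and newborn COP differed by 0.012 on the same scale (exact permutation test, adjusted p = 0.486), and this sign turned when the curve was fitted over lineage cells alone (-0.0186) and with the Y7 libraries alone as adults (-0.0117). Without Day0 replicates 1 and 2 the difference of COP and OPC was 0.0020 and that between the ages 0.013, and neither passed.

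**Figure D5:**
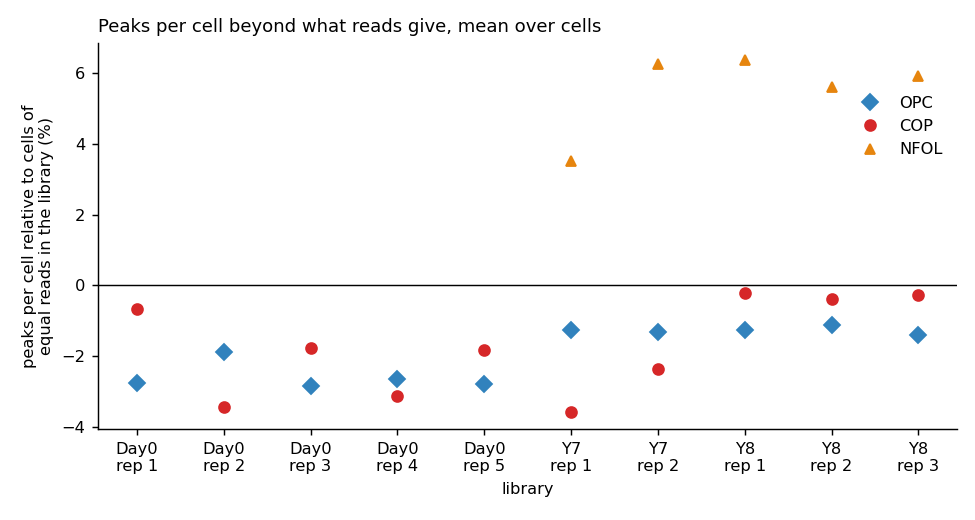
Mean departure of OPC, COP and NFOL cells from the curve of peaks on reads of their library, in percent, for each of the 10 libraries. NFOL lie at 3.52% to 6.35% and COP at -3.56% to -0.227%, so the adult values of COP and NFOL do not overlap.

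NFOL stood apart from COP on this measure in every adult library, and from the other glia listed as well. The adult mean departures were -1.27% for OPC, -1.36% for COP, -1.35% for astrocytes and -1.48% for MFOL, against 5.53% for NFOL. MOL lay between -1.13% and -0.882% in the adult libraries. NFOL departed by 3.52% and 6.26% at Y7 and by 6.35%, 5.60% and 5.92% at Y8. The log2 difference of COP and NFOL was -0.102 and -0.122 in the Y7 libraries and -0.0921, -0.0843 and -0.0869 in the Y8 libraries. COP thus had 0.935 times the peaks of NFOL at equal reads, in 5 of 5 libraries. The exact sign-flip permutation test gave p = 0.0625, the smallest that 5 libraries allow (adjusted p = 0.188). The mean log2 difference stayed between -0.101 and -0.0914 when any adult library was left out. Peaks per cell come from the same data as the clusters that were named, so this measure is not independent of the naming.

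Few COP cells lay near the upper end of depth. Only 2 COP cells, 1 in Y8 replicate 1 and 1 in Y8 replicate 2, lay among the 5% of cells with most reads in their library. COP under 2000 reads were 31.2%, 42.9%, 12.8%, 5.66% and 7.69% of COP in Day0 replicates 1 to 5. They were 35.7% and 25.0% at Y7 and 15.0%, 39.7% and 32.2% at Y8. Of all cells, 13.8%, 15.3%, 9.98%, 10.3% and 8.77% were under 2000 reads in Day0 replicates 1 to 5, 23.0% and 20.9% at Y7, and 34.1%, 33.5% and 31.1% at Y8. COP thus lay above all cells in 7 libraries and below them in Day0 replicates 4 and 5 and Y8 replicate 1, and the adult means were 29.5% ± 9.74 for COP and 28.5% ± 6.13 for all cells (SD, n = 5). Among the cell types with at least 5 cells in a library, COP had the lowest median reads in Day0 replicates 1, 2 and 5. In the adult libraries MFOL lay below COP in all 5, and COP ranked from 2 to 4 counted from the lowest median.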

How the data were processed

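The authors deposited 1 table per species with a row per cell, giving its library, annotated type, cluster, number of reads and number of peaks with a read. Both values are counts as deposited by the authors, without normalization. Per the methods of the study, reads were aligned with Bowtie2 (marmoset build CalJac3), and low-quality, unpaired and duplicate reads were removed (SAMtools, Picard). Those methods also state that each library was sampled to a like depth per cell. The deposited reads per cell still differed by age, with library medians of 6092 to 7145.5 in newborns and 2557.5 to 3338 in adults. Peaks were called with MACS2 in Scasat, and cells within limits on reads and peaks were clustered. Clusters were split by time point, small ones dropped and the rest named from gene scores. For doublets, the sources used here give no treatment.

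Cells were counted per library, which was the unit of all tests. Ages were compared by exact two-sided permutation of library means, and stages of 1 library by exact sign flips, with intervals from the same tests. Benjamini-Hochberg adjustment was made within families of 4 composition, 6 depth, 4 within-library and 3 NFOL tests, at a threshold of 0.05. Peaks were adjusted for reads by a quadratic fit of log2 peaks on log2 reads per library. Libraries of an age whose cell type counts agreed (chi-square) were kept apart, and averaged as an alternative for the composition tests. Agreement was chained from pair to pair, so 2 pairs that differed were averaged too. These were Day0 replicates 3 and 5 (p = 0.0101) and Y8 replicates 1 and 2 (p = 0.00457, chi-square tests). Libraries shared almost no barcodes, which shows that they do not list the same cells but cannot show that they came from separate animals. The replicate numbers were not used as pairs: nothing in the labels ties them to an animal or day. Only the tests of the COP share of all cells and of COP against OPC reads were tried on simulated tables. The simulated newborn libraries differed less in COP share than the real ones, so the real spread was not tried. Python 3.11.15, numpy 2.4.6, pandas 2.3.3 and scipy 1.17.1 were used. No gene is named with a value, by the rule for named genes. The members and tests were chosen with earlier results of these data known.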

Additional observations from a re-analysis of the deposited data

Results flagged for a closer look

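Of 26 groups of 5 libraries examined for a library far from the others, 2 were flagged, both for Y8 replicate 1 among the adults; chance flags about 1 in 20 groups. The log2 ratio of COP to OPC median reads was -0.52 in that library, and its gap to the nearest adult library was 0.786 of the range of the 5. The COP share in the bin with most reads exceeded that in the bin with fewest by 2.67 percentage points there, with a gap of 0.902 of the range, while the other 4 adult libraries lay between -0.496 and -0.186 points.

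The log2 ratio of COP to OPC median reads differed between adults and newborns by -0.57 before adjustment (p = 0.0476, exact permutation test, n = 5) but not after it (adjusted p = 0.127).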

How the results depend on the processing

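Of 270 values recomputed under an alternative, 221 kept their direction and their side of the threshold, or moved by less than the spread between libraries. Most results had not passed to begin with. The permutation tests against NFOL, between Y7 and Y8, and with the replicate number as a block could not pass. This count therefore does not measure how firm the results are. The call for COP against OPC was lost in 7 of 12 alternatives for reads and in 7 of 12 for peaks. The cause was not tested for any value that changed. Adult minus newborn COP shares of all cells lay between -0.154 and 0.689 points when any library was left out, and were -1.29 with Y7 alone as adults, -0.199 with agreeing libraries averaged and -0.622 without Day0 replicates 1 and 2. Shares of OPC and COP ranged from -0.767 to 5.22 points, and were -6.22 with Y7 alone, -5.96 with a minimum at the median of reads and -6.23 at that of peaks, and -5.29 without Day0 replicates 1 and 2. Shares of the lineage ranged from -16.9 to -11.0 points. COP per 100 astrocytes ranged from 6.87 to 14.8 and were -1.97 with Y7 alone.

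With 1 library left out, adult minus newborn log2 differences ranged from -0.76 to -0.50 for COP reads, -0.70 to -0.40 for COP peaks, -0.71 to -0.47 for the ratio of COP to OPC reads and -0.66 to -0.43 for that of peaks. Without Day0 replicates 1 and 2 they were -0.99, -0.94, -0.89 and -0.85 and passed. At equal reads, COP peaks differed between ages by -0.0117 with Y7 alone and -0.0186 with the curve over lineage cells, and COP minus OPC peaks by 0.0079 with Y8 alone (-0.0147 to 0.00063 with 1 library left out). Within libraries, COP minus OPC log2 reads ranged from -0.59 to -0.47, peaks from -0.58 to -0.46 and peaks at equal reads from -0.00082 to 0.0063 with 1 library left out, and without Day0 replicates 1 and 2 reads were -0.47 and peaks -0.45, which did not pass. The COP share of the bin with most minus that with fewest reads ranged from -1.56 to -0.832 points. COP per 100 NFOL were 16.3 and 15.8 under the same minima. The chi-square of adult COP counts over libraries was 4.81 against NFOL, 0.356 in Y7 alone and 5.38 in Y8 alone, none past the threshold.

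The ages were also compared with the replicate number as a block (numbers 1 to 3). The difference was then 1.27 points of all cells and -0.37 for the log2 ratio of COP to OPC reads. None of the results compared this way had passed without the block. With so few libraries per block, the permutation test could not pass either. That no call changed therefore does not show how firm the results are. The numbers gave no clear pairing of the libraries. Deviations of the cell type shares correlated at -0.0595, 0.103 and 0.327 in same-numbered Day0 and Y8 libraries, and at 0.207 and -0.159 in same-numbered Day0 and Y7 libraries. Each correlation rests on 8 cell types, too few to tell whether libraries shared a day or an animal. Both Y7 libraries and Day0 replicates 1 and 2 held only 7 to 16 COP cells each, which limits the precision of their values.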
